A study of Mus musculus with 2 samples.

Results

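Bone morphogenetic protein (BMP) signalling was followed through 10 of its genes in single cells of the Isl1-Cre lineage: the endothelial receptor genes Eng, Acvrl1 and Bmpr2, the ligand gene Bmp4, the SMAD genes Smad6, Smad7 and Smad9, and the target genes Id1, Id2 and Id3. They were chosen by symbol, and all 10 were found among the 32285 genes of the deposited tables. Cells carrying eYFP were sorted from tissue above the liver of mouse embryos at E13.5, and 1 library was made for each genotype from 3 pooled embryos. The control was Isl1-Cre;R26R-eYFP, in which Cre recombinase under Isl1 control switches on the yellow fluorescent label from the Rosa26 locus. The mutant was Isl1-Cre;R26R-eYFP;Pik3caH1047R, which also carried an activated form of the catalytic subunit of phosphoinositide 3-kinase in the same lineage. Both pools therefore shared Cre and label, and differed in Pik3caH1047R and in the embryos pooled. The cells obtained differed as well: a hepatoblast-like cluster, named from markers, held 0 control and 46 mutant cells. Whether the dissections differed was not tested.

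BMP9 and BMP10 circulate in blood and bind a receptor complex on endothelial cells (ECs), made of the type I receptor ALK1, the type II receptor BMPR2 and the co-receptor endoglin. The activated receptors phosphorylate SMAD1, SMAD5 and SMAD9, which enter the nucleus with SMAD4 and switch on target genes, among them the ID genes. ID proteins lack a DNA-binding domain and hold basic helix-loop-helix factors off DNA, while SMAD6 and SMAD7 are induced by the pathway and restrain it. Loss of endoglin or ALK1 in people underlies hereditary haemorrhagic telangiectasia, a disease of malformed vessels.

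Only cells in which over 2000 and under 9000 genes were found entered, with mitochondrial transcripts below 10% of their UMIs (a UMI is a unique molecular identifier, which marks 1 captured transcript). These were 2783 of 4505 control cells with a median of 20412 UMIs and 3489 of 5357 mutant cells with a median of 16839. The libraries shared 28 barcodes, 12 of them among the kept cells. Cells were clustered without the genes reported here and named from markers. The EC-like class, in which all 16 EC markers were raised and were higher than in every other compared class, held 146 control cells (5.25% of the kept cells, 3185963 UMIs) and 700 mutant cells (20.06%, 13950045 UMIs). Levels are UMIs of a gene per 1000000 UMIs of the class (counts scaled in this way are written CPM), and ratios are log2 of mutant over control. With 1 library per genotype no test between genotypes was possible, and the 95% intervals given with the values (exact Poisson for levels, conditional binomial for ratios, Clopper-Pearson for shares of cells) cover counting error only, so differences among embryos, dissections and libraries are outside them. Calls of sex from Xist and 4 genes of the Y chromosome gave 89.7% female-like and 0% male-like cells among control ECs, and 33.3% and 54.6% among mutant ECs.

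Sequences before the RefSeq start are shown for 1 receptor gene whose level was close in both libraries (Eng) and for 2 genes whose level was higher in mutant ECs (Bmp4 and Id2). They are from RefSeq on GRCm38.p6, 5′ to 3′ on the strand of the gene, and hold only bases before the RefSeq start that no GENCODE exon covers. Capitals mark GGCGCC, a GC-rich element known to be bound by SMAD1 and SMAD5, which reads the same on both strands.

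Eng, chr2:32646345-32646594, plus strand: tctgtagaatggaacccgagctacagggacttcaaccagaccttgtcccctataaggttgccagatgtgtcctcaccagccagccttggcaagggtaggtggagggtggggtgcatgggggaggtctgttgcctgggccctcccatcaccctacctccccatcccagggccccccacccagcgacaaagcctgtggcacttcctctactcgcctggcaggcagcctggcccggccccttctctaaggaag
Bmp4, chr14:46390670-46390919, minus strand: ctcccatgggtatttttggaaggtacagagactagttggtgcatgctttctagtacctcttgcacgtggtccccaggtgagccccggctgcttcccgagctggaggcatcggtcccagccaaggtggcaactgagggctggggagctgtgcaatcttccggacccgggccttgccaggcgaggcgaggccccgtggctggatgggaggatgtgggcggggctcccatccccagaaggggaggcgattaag
Id2, chr12:25096254-25096342, minus strand: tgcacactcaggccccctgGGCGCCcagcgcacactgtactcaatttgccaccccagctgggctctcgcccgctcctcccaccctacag

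The Id2 stretch, 89 bases long, ends 161 bases before the RefSeq start and lies inside the longer GENCODE span of Id2, between its exons. It held 1 GGCGCC, and the 250 bases of Eng and of Bmp4 held 0. Of the members whose stretches are not shown, Smad9, for which no difference was detectable in ECs, held 1 in its 250 bases, and Smad6 held 0. Of all 32851 RefSeq promoter windows of the mouse, 9.59% held the element in the 250 bases before the start and 2.73% in the first 89 of them. These letters describe the sequence and say nothing of binding in these cells.

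In EC-like cells the receptor genes were close in both libraries, while Id2, Smad7 and Bmp4 were higher in the mutant. Of the 10 genes, 3 were higher by over 1.5-fold and 0 lower, against 15.4% of all 14172 genes with at least 20 UMIs that were higher by that fold and 14.6% that were lower. The median ratio of the 10 genes was 0.26, beside -0.06 over all genes tested. This median was smaller in female-like cells (0.10), as a mean over cells (0.12), with the subcluster shares of the control (0.10) and without EC subcluster 1 (0.089), and in G1 cells it was -0.038. The members with a higher level were a ligand, an inhibitory SMAD and 1 ID gene, and the remaining 7 stayed within 1.5-fold.

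Eng (chromosome 2, 32646595 to 32682669), which encodes endoglin, was at 415 CPM in control ECs (1323 UMIs, interval 393 to 438) and 403 in mutant ECs (5620 UMIs, 392 to 414). The ratio was -0.04 (interval -0.13 to 0.04), so the libraries were alike within counting error. A UMI of Eng was found in 94.5% of control and 96.1% of mutant EC-like cells. In cardiomyocyte-like cells, which should lack it, the shares were 3.70% and 2.75%, at median depths of 14424 and 15866.5 UMIs against 20162 and 16970.5 in ECs.

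Acvrl1 (chromosome 15, 101128522 to 101145336), which encodes ALK1, was at 87.6 CPM in control (279 UMIs) and 102 in mutant ECs (1421 UMIs), a ratio of 0.22 (0.03 to 0.41). Cells with an Acvrl1 UMI were 71.9% and 70.4% of ECs, and 0 of 54 control and 1 of 182 mutant cardiomyocyte-like cells. Bmpr2 (chromosome 1, 59763400 to 59879014), the type II receptor gene, was at 146 and 139 CPM (465 and 1933 UMIs), a ratio of -0.07 (-0.22 to 0.07). All 3 receptor genes thus lay well inside 1.5-fold, and only the interval of Acvrl1 left out a ratio of 0. Without subcluster 1, a group of ECs found mostly in the mutant, the ratio of Acvrl1 was -0.01.

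Bmp4 (chromosome 14, 46383520 to 46390669), a ligand gene of mesenchyme and some endothelium, was at 29.5 CPM in control ECs (94 UMIs, interval 23.8 to 36.1) and 71.1 in mutant ECs (992 UMIs, 66.8 to 75.7). The ratio was 1.27 (0.96 to 1.59), and the intervals of the levels did not overlap. Cells with at least 5000 UMIs were thinned to 5000, and cells with fewer were left out of all thinned values. Among the 143 control and 668 mutant ECs that remained, a Bmp4 UMI was found in 8.39% (4.41% to 14.2%) and 20.8% (17.8% to 24.1%). Without thinning the shares were 17.1% and 42.0%. The ratio was smaller, and under 1.5-fold, as a mean over cells (0.56) and in G1 cells alone (0.53).

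Smad7, whose product blocks type I receptors of the TGF-beta and BMP branches, was at 46.8 CPM in control ECs (149 UMIs, interval 39.6 to 54.9) and 144 in mutant ECs (2011 UMIs, 138 to 151). This was a ratio of 1.62 (1.38 to 1.87), a 3.08-fold higher level. The share of thinned cells with a UMI was 21.7% (15.2% to 29.3%) in control and 42.7% (38.9% to 46.5%) in mutant, and 42.5% and 70.1% before thinning. Smad6 (chromosome 9, 63953076 to 64022059), the inhibitory SMAD more selective for BMP receptors, was at 44.9 and 57.0 CPM (143 and 795 UMIs), a ratio of 0.34 (0.09 to 0.61). This direction did not hold in female-like cells (-0.25), in G1 cells (-0.26) or in thinned cells (-0.01). The 2 inhibitory SMAD genes therefore differed in the size of their ratio: Smad7 UMIs per Smad6 UMI were 1.04 in control and 2.53 in mutant ECs, a log2 change of 1.28 (0.93 to 1.63). Smad9 (chromosome 3, 54755582 to 54801257), which encodes the third BMP-activated SMAD, had 4 UMIs in control and 17 in mutant ECs, or 1.26 and 1.22 CPM, and no difference was detectable at this depth.

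The ID genes went different ways. Id1 (chromosome 2, 152736251 to 152737410) was at 255 CPM in control ECs (812 UMIs, interval 238 to 273) and 193 in mutant ECs (2691 UMIs, 186 to 200), a ratio of -0.40 (-0.52 to -0.29). Its level was lower in the mutant beyond counting error but within 1.5-fold. Id2 (chromosome 12, 25093799 to 25097140), part of whose sequence is shown above, was at 112 in control (356 UMIs, 100 to 124) and 350 in mutant (4886 UMIs, 340 to 360), a ratio of 1.65 (1.49 to 1.81) or 3.13-fold. Thinned cells with an Id2 UMI were 35.0% (27.2% to 43.4%) of control and 58.4% (54.5% to 62.2%) of mutant ECs. Id3 (chromosome 4, 136143497 to 136145755) was at 547 and 674 (1744 and 9399 UMIs), a ratio of 0.30 (0.23 to 0.37), and its share of thinned cells was 78.3% and 79.2%. In G1 cells alone the ratio of Id3 was 0.03 and that of Id1 was -0.66.

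A comparison of ID genes, each summed over the same cells, does not depend on the total used for scaling. The intervals of these gene-to-gene changes, and of Smad7 over Smad6 above, are normal approximations on the log scale for counting error. Control ECs had 0.44 Id2 UMIs for each Id1 UMI and mutant ECs had 1.82, a log2 change of 2.05 (1.86 to 2.24). Id3 UMIs per Id1 UMI went from 2.15 to 3.49, a log2 change of 0.70 (0.57 to 0.84).

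**Figure D1:**
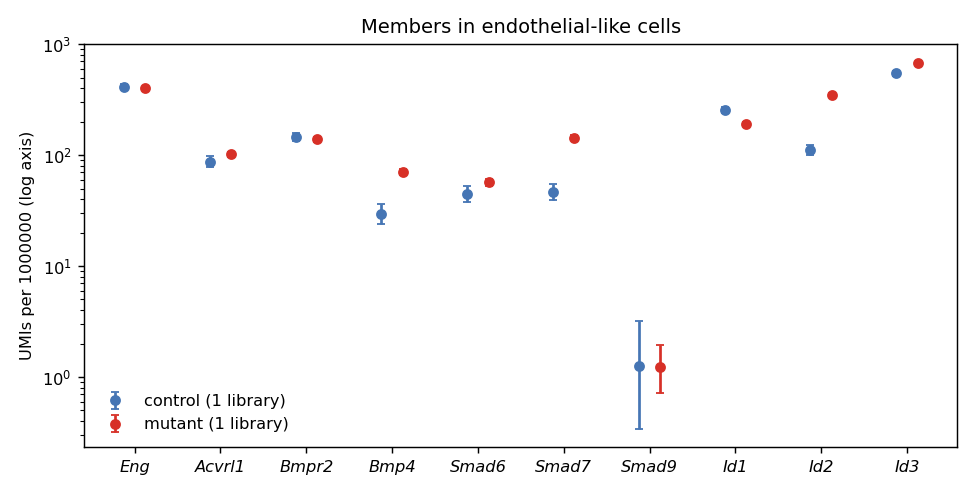
Level of each member in EC-like cells, in UMIs CPM on a log axis, for the control library (blue) and the mutant library (red). Bars are 95% Poisson intervals for counting error. The pairs of Eng, Acvrl1 and Bmpr2 lie close together, the mutant point lies above the control for Bmp4, Smad7 and Id2, and that of Id1 lies below.

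Markers of other cells and of EC kinds also differed between the EC-like cells of the 2 libraries. The 16 EC markers summed to 7226 and 7001 CPM. The 12 mesenchyme markers, all detected in both, summed to 243 in control and 129 in mutant, and the 9 macrophage markers to 41.4 (C1qa and C1qc at 0) and 14.6 (all detected). Mural markers (8 of 8 detected) summed to 98.9 and 117, and erythroid markers to 65.6 (7 of 9 detected, Hba-a2 and Hba-x at 0) and 70.0 (9 of 9). Arterial markers (11) summed to 1377 and 755, lymphatic markers (8) to 647 and 406, and endocardial markers (8) to 433 and 803. Without the 10% of EC-like cells that had the highest mesenchyme marker share, the ratios were 1.77 for Id2, 1.68 for Smad7, 1.26 for Bmp4 and -0.43 for Id1, so none of the 4 was smaller in size by more than 0.02. In female-like cells alone the ratios were 1.25 for Id2, 1.09 for Smad7, 1.24 for Bmp4 and -0.40 for Id1.

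ECs were divided into 5 subclusters, again without the genes reported here. Subcluster 0, led by Aplnr, held 70 control and 288 mutant cells. Subcluster 2 was led by Esm1 with 8 of 11 arterial markers raised (26 and 110 cells), and subcluster 3 was led by Eln with 7 of 8 endocardial and 7 of 11 arterial markers raised (21 and 89 cells). Subcluster 4 was lymphatic-like, with 7 of 8 lymphatic markers raised and Ccl21a, Pdpn and Reln among its leading genes (22 and 60 cells). In subclusters 3 and 4, 7 of 12 mesenchyme markers were raised as well. Subcluster 1, led by Fgf23, Trib3 and Pgf, held 7 control and 153 mutant cells and was not compared.

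By summed UMIs, Id2 was higher in the mutant in each of the 4 compared subclusters. Its level in control and mutant was 90.9 and 340 in subcluster 0 (ratio 1.90, interval 1.66 to 2.15), 64.4 and 199 in subcluster 2 (1.63, 1.08 to 2.23), 283 and 454 in subcluster 3 (0.68, 0.37 to 1.01), and 76.6 and 269 in the lymphatic-like subcluster (1.81, 1.34 to 2.32). In control cells the level in subcluster 3 lay above the other 3, and its interval did not overlap theirs. Thinned cells of subcluster 3 had the opposite order, with an Id2 UMI in 75.0% of 20 control and 64.6% of 82 mutant cells. The intervals of these shares overlapped (50.9% to 91.3% and 53.3% to 74.9%), and the means were 2.25 and 2.13 UMIs. Smad7 was at 25.8 and 85.5 in subcluster 0 (ratio 1.73), 62.2 and 245 in subcluster 2 (1.98), and 28.7 and 80.7 in the lymphatic-like subcluster (1.49). In subcluster 3 it was at 158 and 182, a ratio of 0.20 (-0.23 to 0.66).

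By summed UMIs, Bmp4 was higher in the mutant in 3 of the 4 subclusters and lower in subcluster 3. The levels were 26.4 and 89.7 in subcluster 0 and 10.7 and 36.6 in subcluster 2, with ratios of 1.76 (1.32 to 2.25) and 1.77 (0.45 to 3.46). The lymphatic-like subcluster had 0 Bmp4 UMIs in 522157 control UMIs, which at a floor of 3 counts in that library is 5.75 CPM, against 54.2 CPM in the mutant (88 UMIs). Set against this floor the mutant level was at least 9.44-fold higher, and the lower limit of the counting interval of the log2 ratio was 2.91. In subcluster 3 the levels were 125 and 63.5, a ratio of -0.98 (-1.51 to -0.42). The top control cell there held 19 of the 41 Bmp4 UMIs, and the top mutant cell 29 of 101. Cells with a Bmp4 UMI were 8 of 21 in control (38.1%) and 30 of 89 in mutant (33.7%). A difference between subclusters of these sizes was not tested, since the control values rest on 21 to 70 cells of 1 pool.

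The receptor genes, close over all ECs, were not alike in every subcluster. In subcluster 0 the intervals of all 3 ratios held 0. In subcluster 2 they went different ways. There Bmpr2 was at 221 in control and 312 in mutant (0.50, 0.18 to 0.82), and Eng at 487 and 401 (-0.28, -0.51 to -0.05). Acvrl1 was at 129 and 123 (-0.07, -0.51 to 0.38). In subcluster 3, Eng was at 655 in control and 403 in mutant (ratio -0.70, interval -0.93 to -0.47), Acvrl1 at 122 and 55.9 (-1.12, -1.68 to -0.55) and Bmpr2 at 314 and 187 (-0.75, -1.07 to -0.41). All 3 were lower in mutant cells there. In the lymphatic-like subcluster their summed levels were higher in mutant cells. Eng was at 176 and 248 (0.49, 0.16 to 0.84), Acvrl1 at 26.8 and 56.1 (1.06, 0.24 to 1.99) and Bmpr2 at 113 and 167 (0.56, 0.15 to 0.99). The top mutant cell there held 97 of the 271 Bmpr2 UMIs. In thinned cells the share with a Bmpr2 UMI was 47.6% in control and 35.6% in mutant, the opposite order. Thinned shares were 4.76% and 27.1% for Acvrl1 and 47.6% and 67.8% for Eng, whose mean UMIs per thinned cell were 1.33 and 1.27. Mesenchyme markers in the lymphatic-like subcluster summed to 891 CPM in control and 201 in mutant cells, and in subcluster 3 to 664 and 707. Lymphatic markers in the lymphatic-like subcluster summed to 2639 and 1008. The 16 EC markers in subcluster 3 summed to 8748 and 6207, and in the lymphatic-like subcluster to 4261 and 4260. In subcluster 2, arterial markers summed to 3112 in control and 1581 in mutant cells, endocardial markers to 296 and 1242, and venous and capillary markers to 942 and 1693. Median depth there was 15535.5 and 9459 UMIs. Arterial markers in subcluster 3 summed to 4362 and 2594. The cells compared within a subcluster were thus not alike in these markers, and the part of markers and depth in the values of the members was not tested.

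By summed UMIs, Id1 was lower in mutant cells in subclusters 2, 3 and 4, at 221 and 139 (ratio -0.67), 259 and 169 (-0.62), and 318 and 240 (-0.40). It was at 205 and 191 in subcluster 0 (-0.10, -0.28 to 0.08). In subcluster 4 the top control cell held 48 of the 166 Id1 UMIs. Thinned cells there had the opposite order, with an Id1 UMI in 42.9% of control and 52.5% of mutant cells and means of 1.10 and 1.29. Id3 was at 653 and 319 in subcluster 2, a ratio of -1.03 (-1.25 to -0.81), where mutant cells had less than in any other compared subcluster of that library. In the others its ratio lay between -0.13 and 0.46. Smad6 was highest in subcluster 3 in both libraries, at 259 and 182, and lay between 16.6 and 45.1 in the other control subclusters.

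**Figure D2:**
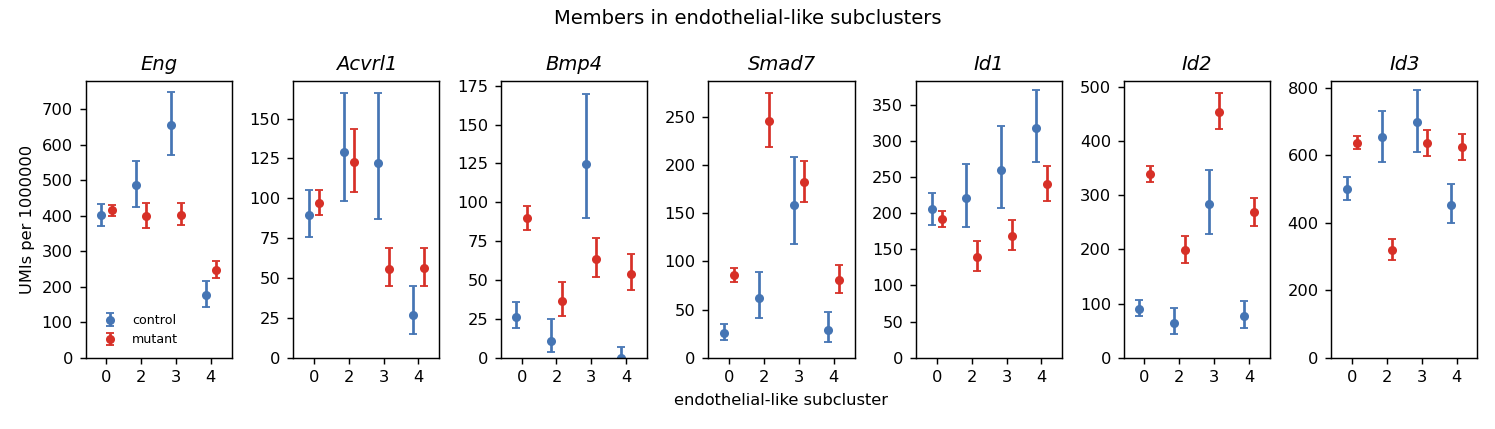
Level of 7 members in the 4 compared EC-like subclusters (numbers on the x axis, 4 is lymphatic-like), in UMIs CPM with 95% Poisson intervals, control in blue and mutant in red. Id2 is higher in red in all 4, Bmp4 is higher in red except in subcluster 3, and Eng, Acvrl1 and Bmp4 are lower in red in subcluster 3. Of the 41 control Bmp4 UMIs in subcluster 3, 19 were in the top cell. In thinned cells of subcluster 3 the share with an Id2 UMI had the opposite order to the level shown.

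Levels were compared over the 7 named classes with at least 50 cells in each library. A further cluster of 174 control and 176 mutant cells stayed unnamed, since its 9 of 9 raised macrophage markers were matched by another marker list, and its values are given apart. Eng and Acvrl1 had their highest levels in ECs. After the EC levels of 415 and 403, Eng among the named classes came next in mesenchyme-like cells at 27.4 in control and 21.9 in mutant, and the other 5 classes lay between 1.88 and 5.81 in control and between 2.21 and 6.75 in mutant, most with overlapping intervals. Acvrl1 in mesenchyme-like cells was at 5.19 and 6.94, and it had 0 UMIs in control neuron-like and cardiomyocyte-like cells, for which the floor of 3 counts is 0.758 and 3.46 CPM. In the unnamed cluster Eng was at 22.5 and 27.4, and Acvrl1 at 8.37 and 5.80. Free RNA of lysed ECs could not be told apart from expression at such levels.

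The ID genes had no such restriction. Over the 7 named classes, Id1 in control was highest in epithelium-like cells (315), followed by EC-like (255), mesenchyme-like (246) and mesothelium-like cells (239), whose intervals overlapped, and was lowest in cardiomyocyte-like cells (36.9). In the mutant, epithelium-like (336), mesenchyme-like (284), mesothelium-like (274) and branchial muscle-like cells (248) all had more Id1 than ECs (193). Id2 in control was highest in epithelium-like (445) and neuron-like cells (294), and the EC level of 112 was the fifth of 7. In the mutant, ECs (350) were second to mesothelium-like cells (433), and epithelium-like cells were at 262. Id3 was highest in mesothelium-like cells in both libraries, at 727 and 773, and lowest in cardiomyocyte-like cells, at 64.7 and 29.4. In the unnamed cluster, led by Ccr1, Elane and Mpo, all 3 were lower in the mutant, and whether its mix of cells differed between the libraries was not tested. Id2 there was at 312 and 107 (1452 and 535 UMIs), a ratio of -1.54 (-1.69 to -1.40), Id3 at 249 and 62.8 (-1.99, -2.17 to -1.81), and Id1 at 93.6 and 57.0 (-0.72, -0.94 to -0.50). Its control Id2 level lay above that of neuron-like cells.

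**Figure D3:**
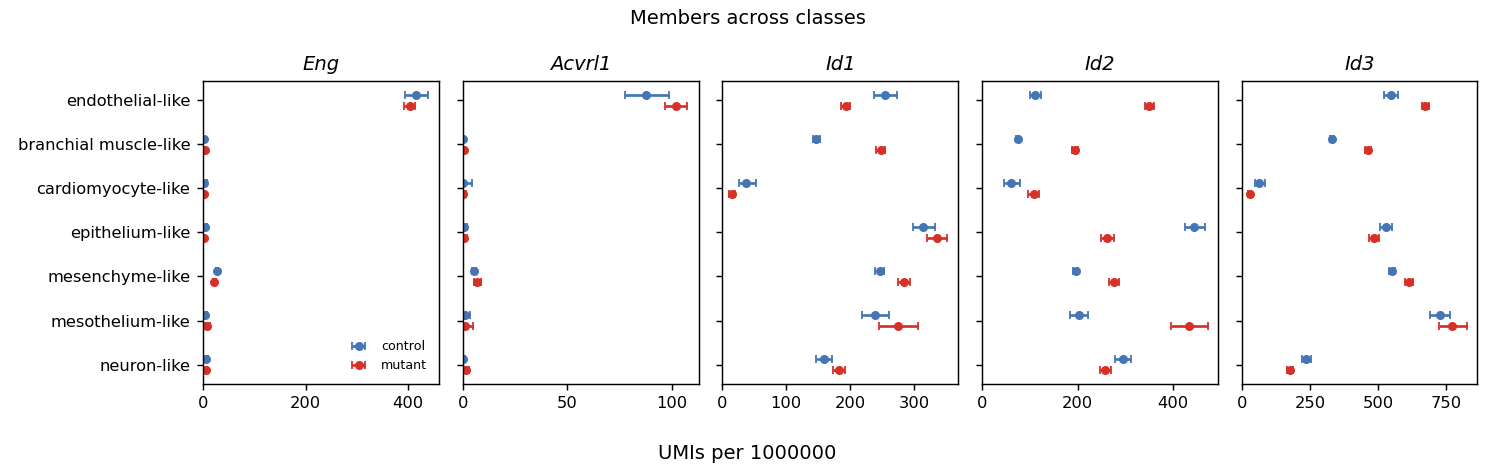
Level of Eng, Acvrl1, Id1, Id2 and Id3 in the 7 compared classes, in UMIs CPM with 95% Poisson intervals, control in blue and mutant in red. Eng and Acvrl1 are far above the other classes in EC-like cells, and ID genes are found in every class with their lowest Id1 and Id3 levels in cardiomyocyte-like cells.

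Pattern likeness was described over the 14 class and library values, by Pearson's r of log2(level + 1) among 7348 genes that reached 50 CPM in at least 1 of them. The genes most like Eng were Acvrl1 (r = 0.98), Arap3 (0.98) and Cd34 (0.97), and those most like Acvrl1 were Eng (0.98), Elk3 (0.97) and Arap3 (0.97). The genes most like Id1 were Yeats2 (0.98), Spcs2 (0.97) and mt-Atp6 (0.96), and those most like Id3 were Rpn1 (0.98), Stt3a (0.98) and Rpn2 (0.97). The 14 points share 2 libraries, and the cardiomyocyte-like points are the lowest for Id1 and Id3.

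The higher Id2 level was also found outside ECs. In branchial muscle-like cells Id2 was at 74.5 and 194 (1747 and 3780 UMIs), a ratio of 1.38 (1.30 to 1.46), and in mesothelium-like cells at 202 and 433, a ratio of 1.10 (0.91 to 1.29). Cardiomyocyte-like cells had 61.2 and 108 (0.82, 0.40 to 1.26), and mesenchyme-like cells 196 and 276 (0.50, 0.43 to 0.56). Neuron-like cells had 294 and 258 (-0.19, -0.30 to -0.09). The unnamed cluster, given above, and epithelium-like cells had the opposite direction, the latter with 445 in control and 262 in mutant (1808 and 1411 UMIs), a ratio of -0.76 (-0.86 to -0.66). In thinned epithelium-like cells the share with an Id2 UMI was 66.0% (59.0% to 72.5%) in control and 48.0% (42.1% to 54.1%) in mutant.

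Smad7 was higher by over 1.5-fold in branchial muscle-like cells, at 21.0 and 48.8 (ratio 1.22, interval 1.06 to 1.38). In cardiomyocyte-like cells its ratio of 0.84 was also past this fold, but it rests on 7 control UMIs and its interval ran from -0.31 to 2.24. In epithelium-like, mesenchyme-like, mesothelium-like and neuron-like cells the ratio lay between 0.38 and 0.53. Id1 in branchial muscle-like cells was at 147 and 248, a ratio of 0.75 (0.69 to 0.82), unlike in ECs, where it was lower in the mutant. Id3 there was at 332 and 463 (0.48, 0.44 to 0.53).

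Bmp4 was at 49.3 and 81.3 in mesenchyme-like cells (ratio 0.72, interval 0.59 to 0.85), at 52.0 and 99.6 in mesothelium-like cells (0.94, 0.55 to 1.32) and at 42.8 and 27.3 in epithelium-like cells (-0.65, -0.97 to -0.32). Control ECs had less Bmp4 than these 3 classes, with intervals below those of all 3, and in the mutant the EC level of 71.1 lay between epithelium-like and mesenchyme-like cells. The mesenchyme-like class was made of different clusters in the 2 libraries: cluster 0 held 648 control and 627 mutant cells, and cluster 5, led by Adh1 and Wnt2, held 344 and 58. In cluster 0 alone the ratio of Bmp4 was 0.77 and that of Id2 was 0.26.

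Bmpr2 was present in all 7 classes, between 23.1 and 146 CPM in control and between 14.5 and 139 in mutant. It was higher in mutant mesothelium-like cells, at 38.2 and 103 (83 and 122 UMIs), a ratio of 1.43 (1.02 to 1.85). In ECs, branchial muscle-like, epithelium-like, mesenchyme-like and neuron-like cells its ratios lay between -0.07 and 0.12, and in cardiomyocyte-like cells, on 20 and 46 UMIs, the ratio was -0.67 (-1.46 to 0.17). Smad6 was at 45.6 and 78.5 in mesothelium-like cells (0.78, 0.36 to 1.21) and at 12.4 and 8.17 in neuron-like cells (-0.60, -1.16 to -0.03). Smad9 lay between 1.22 and 17.7 CPM over the 7 classes and both libraries, and in neuron-like cells it had 43 control and 21 mutant UMIs (10.9 and 2.72 CPM), a ratio of -2.0 (-2.82 to -1.21).

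Cardiomyocyte-like cells had less Id1 and Id3 in the mutant, at 36.9 and 14.8 for Id1 (32 and 47 UMIs, ratio -1.32, interval -2.0 to -0.62) and 64.7 and 29.4 for Id3 (-1.14, -1.63 to -0.63). These control counts rest on few cells. Of the 32 Id1 UMIs, 22 were in 1 cell, and 4 of 54 control cells against 35 of 182 mutant cells had an Id1 UMI. In thinned cells the shares were 5.56% and 5.11%, so no order was read from them. With cells assigned by marker counts in place of clusters, the ratio of Id3 was 0.10 and that of Id1 was -0.02.

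**Figure D4:**
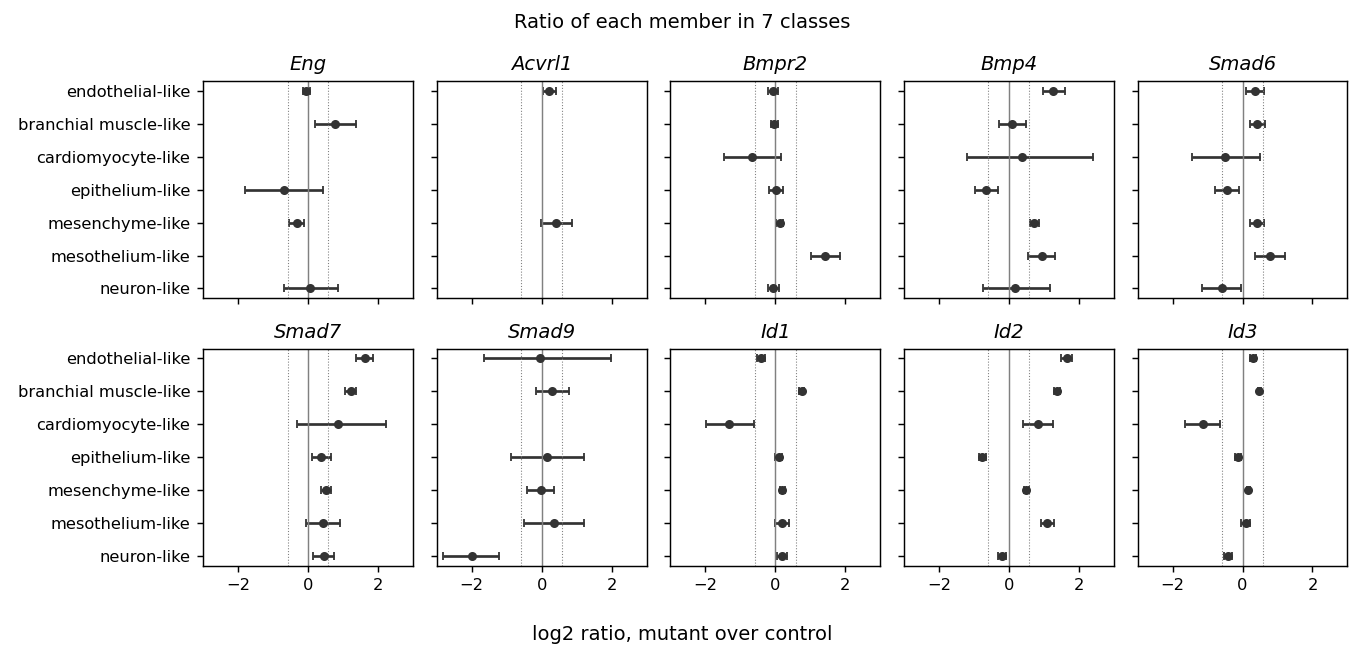
Log2 ratio of mutant over control for each member in the 7 compared classes, with 95% conditional binomial intervals. Dotted lines mark 1.5-fold, and classes with under 20 UMIs in all or 0 in a library are left out. Id2 lies to the right in 5 classes and to the left in epithelium-like and neuron-like cells.

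Other genes of the pathway were read from lists, and no count from a list was tested. Beside each count below stand 15.4% of all 14172 genes with at least 20 UMIs in ECs, which were higher by over 1.5-fold. Lower by that fold were 14.6%. Of 7 BMP-type receptor genes in ECs, 1 was higher by over 1.5-fold and 2 were lower, with a median ratio of -0.01. Acvr2a, a type II receptor gene, was at 53.0 and 27.7 CPM (-0.94, interval -1.20 to -0.67), and the type I receptor gene Acvr1 was at 61.2 and 62.1. The other 2 past this fold, named after their values were seen, were Bmpr1a (0.61) and Bmpr1b (-0.84). Of 4 co-receptor genes with enough UMIs, 1 was higher (Rgma, on 9 and 75 UMIs, named after its values were seen) and 1 lower. Tgfbr3, which encodes betaglycan, was at 98.9 and 53.5 (-0.88, -1.08 to -0.69), and Rgmb was at 19.1 and 17.3.

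Among ligand genes, 6 of 16 had at least 20 UMIs in ECs, and 4 of these were higher by over 1.5-fold: Bmp4, Bmp6 (43 and 346 UMIs, ratio 0.88, interval 0.42 to 1.37), Bmp2 (0.68, -0.11 to 1.56, named after its values were seen) and Gdf11, which had 3 UMIs in control and 55 in mutant (2.07, 0.44 to 4.39), also named after its values were seen. Bmp8a was at 6.28 and 9.18 (0.55, -0.14 to 1.31). The minimum of 20 UMIs was over both libraries, and Gdf11 reached it through its mutant UMIs. The balance of the list depended on this minimum. With at least 20 UMIs the median ratio was 0.78. With at least 1 UMI, 4 of 14 were higher and 6 lower, with a median of -0.23, a count of 0 being set to 3. With at least 100 UMIs, 3 of 4 were higher and 0 lower. The ligand genes Gdf2 and Bmp10, which encode BMP9 and BMP10, were among the 10 under the minimum of 20 UMIs. Of 8 SMAD genes, Smad7 alone was past 1.5-fold. Smad1, which transmits the BMP signal, was at 132 and 92.3 (-0.52, -0.68 to -0.36), and Smad4 was at 77.8 and 85.7.

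Of 4 ID genes, Id2 and Id4 were higher by over 1.5-fold, Id4 at 4.39 and 9.53 (14 and 133 UMIs, ratio 1.12, interval 0.32 to 2.03). Among 7 genes for helix-loop-helix proteins that ID proteins bind or that share their targets, 0 were higher and 2 were lower, with a median of -0.43. These were Tcf4, an E protein, at 928 and 551 (-0.75, -0.81 to -0.69), and Hey1, a Notch and BMP target, at 61.5 and 31.0 (-0.99, -1.23 to -0.74). Tcf12 was at 267 and 198 (-0.43).

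Of 9 intracellular and membrane brakes of the pathway, 3 were higher by over 1.5-fold and 0 lower, with a median of 0.34. Over all genes the shares were 15.4% and 14.6%. Beside Smad7 these were Smurf1, a ubiquitin ligase that works with inhibitory SMADs, at 39.5 and 77.1 (0.96, 0.70 to 1.24), and Skil, a SMAD co-repressor, at 84.7 and 138 (0.71, 0.52 to 0.90). Smurf2 was at 88.5 and 101. Bambi, a pseudoreceptor, was at 94.5 and 64.7 (-0.55, -0.74 to -0.35). Of 9 extracellular modulators with enough UMIs, 3 were higher and 1 lower. Fstl1, the one with most UMIs, was at 334 and 471 (0.50), and Twsg1 was at 26.7 and 24.4. The 4 past the fold, named after their values were seen, had few UMIs. Fst had 2 in control and 115 in mutant (ratio 3.72, interval 1.83 to 6.78), and Grem1 had 1 and 31 (2.82, 0.24 to 8.17). Fstl3 had 4 and 35 (1.0, -0.48 to 2.95), and Nbl1 had 26 and 64 (-0.83, -1.51 to -0.11). Fst, Grem1 and Fstl3 thus reached the minimum of 20 UMIs over both libraries through their mutant UMIs. With at least 100 UMIs, 1 of 5 modulators was higher and 0 lower, and with at least 1 UMI, 3 of 15 were higher and 2 lower.

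Of 10 other response genes of BMP9 and BMP10, 2 were higher by over 1.5-fold and 2 were lower, with a median of 0.05. Over all genes the shares were 15.4% and 14.6%. Edn1, which encodes endothelin 1, was at 64.7 and 128 (0.99, 0.78 to 1.20), and Hey1 was lower as given above. The other 2, named after their values were seen, were Id4, given above, and Msx1 (-0.88). In the TGF-beta and activin branch, 3 of 13 were higher and 4 lower, with a median of -0.18. Tgfbr2, the type II TGF-beta receptor gene, was at 181 and 99.6 (-0.86, -1.0 to -0.72), and Tgfb1 was at 200 and 177. Among the others past the fold, named after their values were seen, were Inhbb (2.78), Acvr1b (1.49), Ltbp1 (-0.76), Ltbp3 (-0.69) and Inhba (-1.55, on 12 and 18 UMIs).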

How the data were processed

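Libraries were made with a 10x 5′ kit (v2) from eYFP-positive, 7-AAD-negative sorted cells, and the authors counted UMIs with Cell Ranger 7.1.0 on GRCm38. The deposited values were raw counts of UMIs per gene and cell. Cells had to have over 2000 and under 9000 genes, and under 10% mitochondrial UMIs. Libraries were integrated in Seurat 5.3.0 (R 4.3.3) and clustered without the genes of the lists, and classes were named from markers. Doublets were kept: the automatic threshold of Scrublet (scanpy 1.11.5) called 0 control and 1 mutant cells, so it had not worked. For each class, the counts of its cells were summed within a library and scaled to 1000000 (CPM). Genes with at least 20 UMIs over both libraries were compared, in named classes with at least 50 cells in each library. The members and gene lists were chosen with earlier results of these data known. List genes were named when they had at least 50 CPM in ECs and an interval beyond 1.5-fold, plus the 2 with the highest level. Total depth was 66935720 UMIs in control and 73915525 in mutant, and the scripts were tested on simulated data. Alternatives covered filters, clustering, scaling by the TMM factor of edgeR 4.0.16, sex, phase and thinning. The RefSeq tables used here gave no promoter stretch for Acvrl1 and Id1. That of Smad7 was not read, and those of Bmpr2 and Id3 lie in exons. The values of 1 list gene are not reported here.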

Additional observations from a re-analysis of the deposited data

Results flagged for a closer look

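For 4 members the mutant over control ratio was past 1.5-fold, with an interval on 1 side of 0, in opposite directions in 2 of the named classes. These differences between classes were not tested, since each class has 1 library per genotype and the classes share both libraries. Id2 was 1.65 in ECs and -0.76 in epithelium-like cells, a difference of 2.41. The epithelium-like class had Sftpc, Krt5 and Foxe1 among its leading genes. Whether its mix of cells differed between the libraries was not tested. Bmp4 was 1.27 in ECs and -0.65 in epithelium-like cells, a difference of 1.91. The epithelium-like value stayed past 1.5-fold in 7 of 12 alternatives and the EC value in 13 of 15. In G1 cells neither was past it, at -0.24 and 0.53. Id1 was 0.75 in branchial muscle-like cells and -1.32 in cardiomyocyte-like cells, a difference of 2.07, and 22 of the 32 control UMIs in the latter were in 1 cell. With classes from marker counts the cardiomyocyte-like value was -0.02, so the opposite direction past 1.5-fold was not found there. Smad6 was 0.78 in the mesothelium-like class against -0.60 in the neuron-like class, a difference of 1.38. The neuron-like value ran from -0.85 to -0.33 and stayed past 1.5-fold in 4 of 12 alternatives, and the mesothelium-like value in all 12.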

How the results depend on the processing

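In ECs, Id2 stayed between 1.25 and 1.77 and Smad7 between 1.09 and 1.81 over 15 alternatives, both lowest in female-like cells. Bmp4 ran from 0.53 in G1 cells to 1.63 with mitochondrial UMIs under 5%, and Id1 from -0.66 in G1 cells to -0.29 with TMM scaling. The median of the 10 members, 0.26, was 0.10 in female-like cells, -0.038 in G1 cells, 0.12 as a mean over cells, 0.10 with the subcluster shares of the control and 0.089 without subcluster 1, an alternative chosen after seeing the data. Eng stayed between -0.16 and 0.07, Bmpr2 between -0.23 and 0.04 and Acvrl1 between -0.01 and 0.33, so their direction depended on the setting. The number past 1.5-fold in either direction was 3 or 4 throughout, but not always with the same members. In G1 cells Bmp4 was inside this fold and Id1 was past it, as lower. As a mean over cells Bmp4 was inside it too. In female-like cells Smad9 was past it as lower (-1.12, on 4 control and 3 mutant UMIs). Smad9 stayed inside the fold in 11 of 14 alternatives, so the count rested in part on this gene of few UMIs. The shares of all genes, 15.4% higher and 14.6% lower, were taken for the main setting only. TMM and median-ratio scaling put the EC libraries -0.11 and -0.10 apart, so ratios were higher by that much. Id3 in cardiomyocyte-like cells was 0.10 with classes from marker counts, against -1.14. Of 782 single-gene values over all classes, 653 lay inside the counting interval of the reported value and 128 outside it. The other 1, the Id3 value above, turned a ratio past 1.5-fold whose interval left out 0. Some ratios past 1.5-fold whose interval held 0 also changed sign. Bmpr2 in cardiomyocyte-like cells went from -0.67 to 1.12 with high-scoring doublets removed, and Eng in epithelium-like cells from -0.68 to 0.09 when thinned. Ratios nearer 0 changed sign more often: in ECs, Smad9 kept its sign in 6 of 14 alternatives, Eng in 11 of 15 and Smad6 in 12 of 15. The cause was not tested for any of these. With 1 library per genotype no replicate could be left out. No paired analysis was possible because each genotype has 1 library. Depth limits Smad9 and the subclusters, whose control values rest on 21 to 70 cells.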

Other observations

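Mutant ECs of the 2 sex calls, which come from different embryos of the pool, did not have the same levels. Id2 was at 253 CPM in 233 female-like and 412 in 382 male-like mutant cells, against 107 in 131 female-like control cells. Smad7 was at 103 and 172, against 48.4, and Smad6 was at 36.2 and 71.9, against 43.0. Bmp4 was at 64.3 and 79.3, against 27.3. Id1 was at 201 and 186, against 265, and Eng at 398 and 420, against 402. Embryo and sex cannot be told apart here.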
